A study of Mus musculus with 30 samples.

Results

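Behind the photoreceptors lies the retinal pigment epithelium (RPE), a single sheet of pigmented cells. It engulfs the outer segment tips that photoreceptors shed, recycles the visual chromophore and feeds lipids back to the neural retina. MERTK is the RPE receptor that triggers this engulfment, and TYRO3 and AXL are its paralogs in the TAM receptor family. GAS6 and PROS1 are the bridging ligands. The results below are those of the Mertk-/-V1 line in RPE, set against the mean of 2 other Mertk knockout lines, and cover 12 of the 30 libraries of the series.

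The 12 libraries held RPE taken at postnatal day 25, with 6 of Mertk-/-V1, 3 of Mertk-/-V2 and 3 of Mertk-/-V3, and 6 B6 WT libraries of the same age and tissue were in the same model. Mertk-/-V1 mice lack exon 17 of Mertk. They were made in E14TG2a embryonic stem cells of 129P2/OlaHsd origin, still hold the neomycin cassette at the locus, and were backcrossed to C57BL/6J with a piece of 129P2 chromosome 2 kept around Mertk. Mertk-/-V2 mice lack exon 18, excised in the germline with Rosa26-ERT2Cre and 4-hydroxytamoxifen from a floxed allele made in C57BL/6NJ embryos, and the Cre was bred out with C57BL/6J. Mertk-/-V3 mice lack exons 3 and 4, removed by CRISPR/Cas9 in fertilized C57BL/6NJ eggs. By the study's SNP typing of the genome both B6-derived lines carry C57BL/6NJ as well as C57BL/6J sequence, with the larger C57BL/6NJ share in Mertk-/-V3. The labels give the strain of all groups as C57BL/6J and do not name a litter, a batch or a library date. The study's methods call the libraries biological replicates without saying how many mice went into each.

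The deposited values are read counts divided by 1 size factor per library, called normalized read counts here. A library held 16476097 to 34124049 reads on genes in the 3 knockout lines. A difference is the Mertk-/-V1 mean minus the mean of the Mertk-/-V2 and Mertk-/-V3 means of log2(normalized read count + 1), so that folds of low genes are understated. It was tested with limma over the 18832 genes that had a mean of at least 10, with Benjamini-Hochberg adjustment. A gene was called at an adjusted p under 0.05, and a called gene was a DEG where the difference reached the study's threshold, 2.38-fold in either direction.

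Mertk was read in every library first. It ranged from 919 to 1717 normalized read counts in Mertk-/-V1 RPE, from 444 to 1106 in Mertk-/-V3 RPE, from 3565 to 5311 in Mertk-/-V2 RPE and from 2638 to 3924 in B6 WT RPE. The Mertk-/-V2 libraries did not overlap those of the other knockouts, and reads on the exons left in each allele still count for the gene. Since Mertk-/-V2 reached above B6 WT and no value of single exons was read, the gene's level checks nothing about the Mertk-/-V2 label. The markers fixed for RPE (Rpe65, Best1, Rgr, Lrat and 6 others) were all above 0 in every group, with a summed level of 197544 to 637283 in Mertk-/-V1, 617715 to 829649 in Mertk-/-V2 and 284355 to 766685 in Mertk-/-V3. Rod photoreceptor markers were also high, at 75623 to 1012290 in Mertk-/-V1 RPE against 70112 to 486958 in Mertk-/-V2 and Mertk-/-V3, so reads of neural retina genes were present in all lines. Within Mertk-/-V1, replicates 1 to 3 and 4 to 6 stood apart: against the same Mertk-/-V2 and Mertk-/-V3 libraries, the 17 rod markers had a median log2 difference of -1.21 with replicates 1 to 3 and of 1.16 with replicates 4 to 6. With all 6 the median was -0.04 by limma and 0.46 by edgeR. Mertk-/-V2 and Mertk-/-V3 have only replicates numbered 1 to 3, and the labels do not say whether these numbers mark shared preparations. In such bulk samples, fewer cells of a type and less RNA per cell cannot be told apart.

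Of the 18832 genes, 39 were called, which is 0.207%. Of these, 21 were higher (0.112% of genes tested) and 18 lower (0.0956%) in Mertk-/-V1 RPE, and 18 of the 39 were DEGs, 12 higher and 6 lower. The median difference over all genes was 0.01, and 9.56% of genes had an unadjusted p under 0.05. The single-line differences in the same model called 0.117% of genes for Mertk-/-V1 against Mertk-/-V2, 0.143% against Mertk-/-V3 and 0.388% against B6 WT. They called 0.0743% for Mertk-/-V2 against Mertk-/-V3, and 0.069% for each of these lines against B6 WT. In edgeR's quasi-likelihood test on the recovered reads 39 genes were also called, 35 of them the same. Other settings moved the count from 17, with only the 12 knockout libraries fitted, through 150 with DESeq2 to 2329 with the replicate number as a block and 5444 with array quality weights. With each of the 12 knockout libraries left out in turn, 22 of the 39 kept their call every time. The other 17 lost it in at least 1 of those fits and are marked as such where they are described. The count itself was 23 to 186 over these fits, with 186 in the fit without Mertk-/-V3 replicate 1. In 26 of the 39 genes the 6 Mertk-/-V1 libraries lay entirely above or entirely below the 6 of the other lines, an arrangement found in 0.483% of all genes tested (0.34% above and 0.143% below). For 2 called genes, Wdfy1 and 1010001B22Rik, the difference from Mertk-/-V2 had the opposite sign to that from Mertk-/-V3. Of the 39, 16 were also called against Mertk-/-V2 by itself, 21 against Mertk-/-V3 and only 9 against both. The 9 were Cd59a, Eif3j1, Eif3j2, Exd1, Gm15247, Gm3650, Ivd, Pcna-ps2 and Rab37. Tyro3 was called against Mertk-/-V2 but not Mertk-/-V3, and Gchfr, Tgm3 and Bloc1s6 against Mertk-/-V3 but not Mertk-/-V2.

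The called genes gathered around Mertk on chromosome 2. The stretch from Thbs1 to Plcb1, used here in place of the 129P2 piece, spans chr2:118111876-135475258 (GRCm38). The study mapped that piece with microsatellite markers, and named Thbs1 and Plcb1 as genes that differed in Mertk-/-V1 macrophages of this series. The ends of the stretch are thus not the marker bounds, and genes outside it can also lie in 129P2 sequence. In the stretch 10 of 230 genes tested were called (4.35%), against 29 of 18602 elsewhere (0.156%). These shares do not set 129P2 against B6 sequence. On the rest of chromosome 2, 2 of 1185 genes were called (0.169%), namely Cd59a and Zfp133-ps. In the 10 Mb before the start of Mertk 9 of 140 genes were called, in the 10 Mb after it 1 of 92. An unadjusted p under 0.05 (limma) was found in 27.1% and 19.6% of the genes in these 2 windows. It was also found in 20.8% at 20 to 10 Mb before Mertk and in 25.5% at 30 to 20 Mb before it, against 9.56% of all genes.

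**Figure D1:**
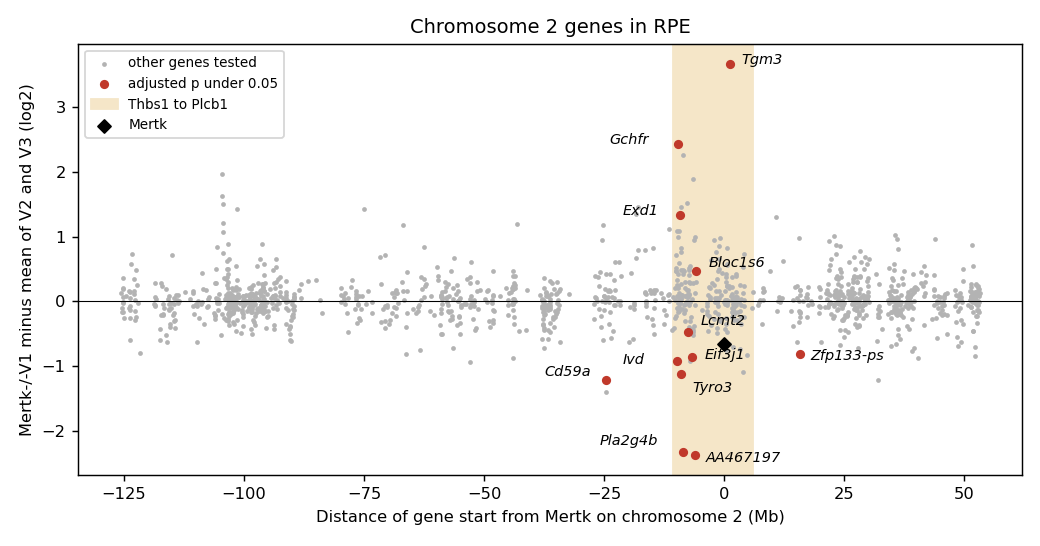
Each point is a chromosome 2 gene tested in RPE, with the distance of its start from the start of Mertk in Mb on the x axis and the log2 difference of Mertk-/-V1 from the average of the B6-derived lines Mertk-/-V2 and Mertk-/-V3 on the y axis. The 12 called genes are red, and 10 of them lie in the shaded stretch from Thbs1 to Plcb1; Mertk, the black diamond at -0.66, was not called.

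Of the TAM receptors, Tyro3 (chr2:119797733-119818104) was lower in Mertk-/-V1 RPE. Its levels were 1871, 1545, 1502, 1434, 986 and 996 normalized read counts in Mertk-/-V1, 3851, 2628 and 2783 in Mertk-/-V2, and 2145, 2983 and 3577 in Mertk-/-V3. Every Mertk-/-V1 library lay below every other RPE library, B6 WT included (2765 to 4161). The log2 difference was -1.12 ± 0.17 (SE; limma, adjusted p = 0.007), and it was -1.17 against Mertk-/-V2 and -1.07 against Mertk-/-V3. The other 4 TAM genes were not called. The difference was 0.10 ± 0.11 for Axl (adjusted p = 0.816), -0.11 ± 0.11 for Gas6 (adjusted p = 0.799) and 0.10 ± 0.17 for Pros1 (adjusted p = 0.907). Mertk differed by -0.66 ± 0.20 (adjusted p = 0.366), the mean of -1.86 against Mertk-/-V2 and 0.54 against Mertk-/-V3.

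Ivd and Gchfr of the stretch moved in opposite directions. Ivd, the mitochondrial isovaleryl-CoA dehydrogenase of leucine breakdown, was at 2025, 2354, 2240, 2040, 1562 and 1457 in Mertk-/-V1, at 3906, 3801 and 3280 in Mertk-/-V2, and at 2681, 4000 and 4337 in Mertk-/-V3. All 6 Mertk-/-V1 values were the lowest among the 18 RPE libraries, with a log2 difference of -0.92 ± 0.13 (adjusted p = 0.00341). Gchfr, which encodes the feedback regulator of the enzyme that starts tetrahydrobiopterin synthesis, went the other way. It was at 164, 100, 102, 93 and 57.3 in Mertk-/-V1 replicates 1 to 4 and 6 and at 32.8 in replicate 5, against 9.67 to 26.7 in Mertk-/-V2 and 11.2 to 15.4 in Mertk-/-V3. The groups did not overlap, although replicate 5 of Mertk-/-V1 fell below the highest B6 WT library (40.1). The log2 difference was 2.43 ± 0.35 (adjusted p = 0.00426).

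Tgm3, a transglutaminase that crosslinks proteins, had the largest difference of the stretch. It was at 46.5, 27.5, 22.1, 54.3, 199 and 157 in Mertk-/-V1 and at no more than 7.81 in any Mertk-/-V2 or Mertk-/-V3 library, with 1 Mertk-/-V3 library at 0. The log2 difference was 3.68 ± 0.60 (adjusted p = 0.0108). Exd1, a partner of the piRNA pathway, was at 81 to 98.4 in Mertk-/-V1, 30.1 to 41.9 in Mertk-/-V2 and 29.3 to 44.9 in Mertk-/-V3, a difference of 1.33 ± 0.16 (adjusted p = 0.000429). Neither gene overlapped with any other RPE library.

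The remaining called genes of the stretch were Eif3j1, Pla2g4b, AA467197, Bloc1s6 and Lcmt2. Pla2g4b, a cytosolic phospholipase A2, was at 3.79 to 13.4 in Mertk-/-V1, against 21.2 to 29.2 in Mertk-/-V2 and 36.8 to 52.4 in Mertk-/-V3 (-2.33 ± 0.44, adjusted p = 0.0366). B6 WT spread over 4.86 to 60.3 and overlapped all of these. AA467197 was at 6.07 to 59.4 in Mertk-/-V1 and at 62.8 to 154 in the other knockouts (-2.38 ± 0.46, adjusted p = 0.0455). Bloc1s6, a subunit of the BLOC-1 complex for lysosome-related organelles such as melanosomes, was higher at 938 to 1215 against 587 to 877 (0.47 ± 0.09, adjusted p = 0.0366), and Lcmt2 was lower at 186 to 269 against 276 to 370 (-0.48 ± 0.09, adjusted p = 0.046). These 4 genes lost their call in 8 to 10 of the 12 fits that left out 1 library, whereas Tyro3, Ivd, Gchfr, Tgm3, Exd1 and Eif3j1 kept it in all 12. When only the 12 knockout libraries were fitted Tyro3, Ivd and Tgm3 missed the threshold, as did Gchfr with Mertk-/-V1 replicates 4 to 6 alone and Tgm3 with replicates 1 to 3 alone. Lcmt2 overlaps Adal on the opposite strand and Pla2g4b overlaps a transcript of Sptbn5 on the opposite strand, and since the sources used here do not say whether counting used the strand, their reads cannot be told apart.

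**Figure D2:**
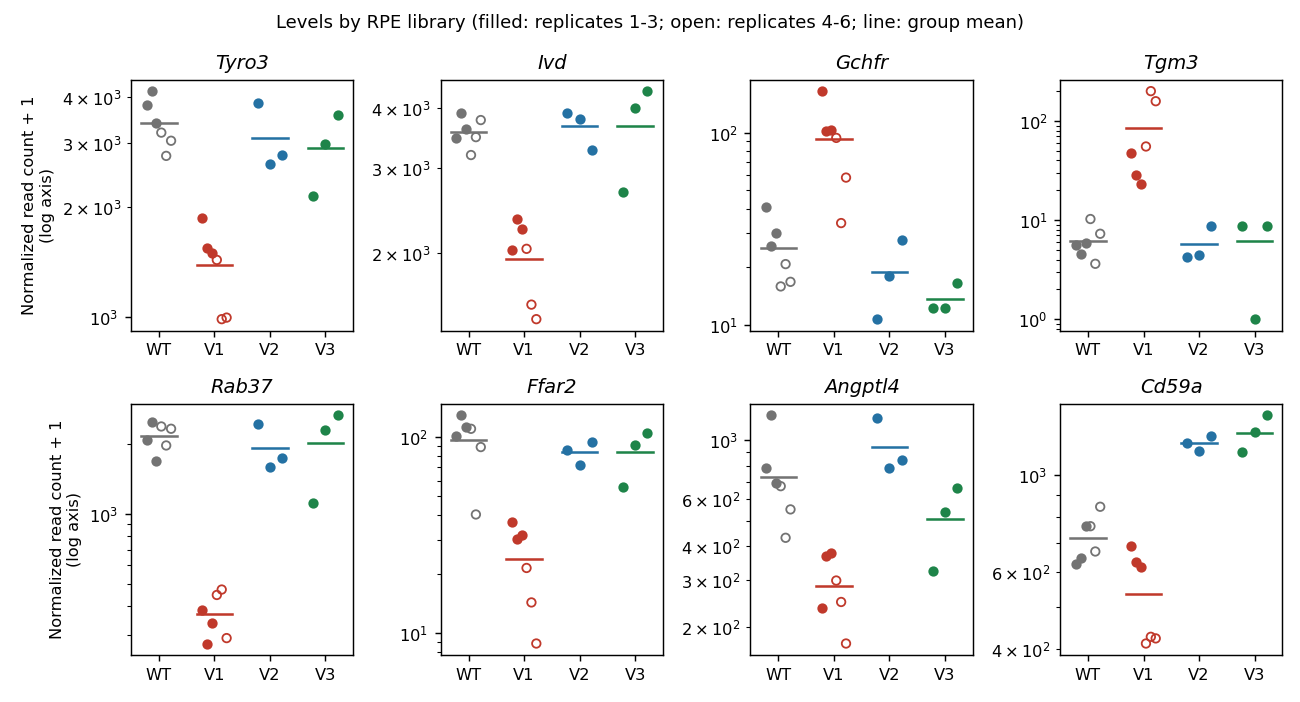
Normalized read count plus 1 on a log axis for 8 genes in each RPE library, by line; filled points are replicates 1 to 3, open points replicates 4 to 6, and lines the group means. Tyro3, Ivd, Rab37 and Ffar2 have all 6 Mertk-/-V1 libraries below the 12 others, and Tgm3 has them above; for Cd59a, Mertk-/-V1 lies nearer to B6 WT than to Mertk-/-V2 and Mertk-/-V3.

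Genes with a near-identical copy in the stretch were among the largest differences. Pcna-ps2 (chr19:9283380-9284160, plus strand) is a processed pseudogene of Pcna, the sliding clamp of DNA replication, which lies at chr2:132249162-132253314 on the minus strand. In the GENCODE transcripts their sequences were 99.2% identical over 781 nt, with 6 mismatches and no gap. A window of 60 nt of both is shown, because reads that cover it tell the 2 genes apart only at the bases in capitals; it lies in 1 exon of the Pcna coding sequence (chr2:132252846-132252905) and at chr19:9283510-9283569 in the pseudogene.
Pcna: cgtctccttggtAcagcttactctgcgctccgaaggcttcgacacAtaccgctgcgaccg
Pcna-ps2: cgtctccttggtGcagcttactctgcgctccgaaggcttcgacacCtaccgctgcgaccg
Pcna-ps2 was at 250, 300, 282, 225, 226 and 242 in Mertk-/-V1, at 12.7 to 31.8 in Mertk-/-V2 and at 23.7 to 35.7 in Mertk-/-V3 (3.41 ± 0.30, adjusted p = 9.88e-06). Pcna was at 675 to 953 in Mertk-/-V1, at 1081 to 1379 in Mertk-/-V2 and at 696 to 1037 in Mertk-/-V3, and its difference of -0.35 ± 0.12 was not called (adjusted p = 0.41).

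The same arrangement was seen for Eif3j1, which encodes a subunit of translation initiation factor eIF3. Eif3j1 lies at chr2:122028546-122056598, Eif3j2 at chr18:43475418-43477796, and their transcripts were 99.4% identical over 2379 nt. Eif3j1 was at 465 to 591 in Mertk-/-V1 and at 850 to 1018 in the other knockouts (-0.86 ± 0.08, adjusted p = 3.09e-05). Eif3j2 was at 353 to 456 against 34.6 to 58.6 (3.16 ± 0.18, adjusted p = 4.49e-08). Gm3650, which lies beside Eif3j2, was 99.9% identical over 747 nt to Spg11, the gene that overlaps Eif3j1 on the opposite strand. Gm3650 was at 126 to 167 in Mertk-/-V1 and at 6.69 to 12.5 in the other knockouts (3.81 ± 0.19, adjusted p = 1.06e-08), while Spg11 differed by -0.43 (adjusted p = 0.302). These 3 copies and Eif3j1 kept their calls under all 27 other settings. How reads were divided between such copies is not given in the sources used here, so the levels of these genes are uncertain.

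Away from chromosome 2 and from these copies, Rab37 had the smallest adjusted p of the genes called lower in Mertk-/-V1 RPE. Gm15446 and Gm47283, called higher and described below, had smaller ones (limma, adjusted p = 7.31e-07 and 5.31e-06). Rab37 is a small GTPase of secretory granules, on chromosome 11 (chr11:115091431-115162236). It was at 385, 275, 337, 445, 470 and 290 in Mertk-/-V1, at 2434, 1580 and 1736 in Mertk-/-V2, and at 1108, 2288 and 2647 in Mertk-/-V3. All 6 Mertk-/-V1 libraries were below every other RPE library, and B6 WT ranged from 1685 to 2481. The log2 difference was -2.39 ± 0.20 (adjusted p = 5.44e-06), at -2.38 against Mertk-/-V2 and -2.39 against Mertk-/-V3, and it was called under all 27 other settings. The other 7 secretory Rab GTPases of the list were not called. Rab3d had their highest value at 0.76 ± 0.36 (adjusted p = 0.524), and the median of the 8 was 0.03.

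Of the 18 genes tested within 250 kb of Rab37, 1 was called, Cd300lb, an activating receptor of myeloid cells. It was at 29.2 to 49 in Mertk-/-V1, at 11 to 18.9 in Mertk-/-V2 and at 16.2 to 17 in Mertk-/-V3 (1.24 ± 0.22, adjusted p = 0.0256), with B6 WT at 18.8 to 43.8. Cd300lf, which overlaps Rab37 on the opposite strand, differed by -1.75 (adjusted p = 0.209), and Slc9a3r1 by -0.63 (adjusted p = 0.458).

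Another 3 receptor genes and a secreted factor were also lower in Mertk-/-V1 RPE. Ffar2, the receptor for short-chain fatty acids, was at 36.1, 29.4, 30.8, 20.5, 13.4 and 7.87 in Mertk-/-V1, at 71.3 to 92.9 in Mertk-/-V2 and at 54.7 to 103 in Mertk-/-V3 (-1.93 ± 0.35, adjusted p = 0.026). Its 6 Mertk-/-V1 libraries lay below all others, B6 WT included. Vipr2, a receptor for vasoactive intestinal peptide, was at 818 to 1183 against 1164 to 1663 in the other knockouts (-0.65 ± 0.10, adjusted p = 0.00734). The groups met at replicate 5 of Mertk-/-V1. Prlr, the prolactin receptor, was at 61.8 to 120 against 110 to 239 (-0.97 ± 0.18, adjusted p = 0.0411).

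Angptl4, a secreted inhibitor of lipoprotein lipase and a target of PPAR receptors, was at 233, 367, 377, 297, 247 and 172 in Mertk-/-V1. It was at 1205, 783 and 840 in Mertk-/-V2 and at 321, 537 and 662 in Mertk-/-V3, so that Mertk-/-V3 overlapped Mertk-/-V1 in 1 library. The difference was -1.30 ± 0.25 (adjusted p = 0.046). Among 16 genes tested of PPAR targets, fatty acid oxidation and ketogenesis, it was the 1 call, and 14 of the 16 had differences below 0 with a median of -0.25. Vipr2 kept its call in all 12 leave-one-out fits but not in the fit of the 12 knockout libraries alone, while Ffar2 lost it in 7, Prlr in 8, Cd300lb in 8 and Angptl4 in 11.

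Of 19 enzymes of cholesterol synthesis, 3 were called higher in Mertk-/-V1 RPE (Hmgcs1, Idi1 and Lss) and 16 did not pass the test. Cells make cholesterol from acetyl-CoA through the mevalonate pathway, and its enzymes share control by the transcription factor SREBP2, which INSIG1 holds in the endoplasmic reticulum when sterols are plentiful. The list holds 19 enzymes of the textbook pathway and was made after called members had been seen, so the counts describe the list and do not test it. The 3 calls among 19 tested, with none lower, stand against 0.112% of all genes called higher. The 19 differences were all above 0, with a median of 0.78 against 0.01 over all genes.

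Hmgcs1, which makes HMG-CoA, was at 11378, 8540, 10304, 6446, 6279 and 6717 in Mertk-/-V1, at 4195, 4347 and 4594 in Mertk-/-V2, and at 4091, 3919 and 3714 in Mertk-/-V3. Mertk-/-V1 did not overlap the other knockouts, while B6 WT, at 4191 to 6511, overlapped Mertk-/-V1 and Mertk-/-V2. The log2 difference was 0.96 ± 0.15 (adjusted p = 0.0075). Idi1, which isomerizes isopentenyl diphosphate, was at 963 to 2036 against 486 to 845 (1.12 ± 0.20, adjusted p = 0.026). Lss, which closes the sterol rings, was at 1961 to 3397 against 1247 to 1508 (0.88 ± 0.15, adjusted p = 0.014). B6 WT lay between, at 672 to 1158 for Idi1 and 1418 to 2406 for Lss, and overlapped Mertk-/-V1 in both. From B6 WT the Mertk-/-V1 differences were 0.59 for Hmgcs1 (adjusted p = 0.154), 0.61 for Idi1 (adjusted p = 0.402) and 0.41 for Lss (adjusted p = 0.511), none of them called. The Mertk-/-V2 and Mertk-/-V3 differences from B6 WT were all below 0, at -0.29 and -0.46 for Hmgcs1, -0.22 and -0.79 for Idi1 and -0.49 and -0.45 for Lss, and were not called either. For Hmgcs1 and Idi1 the 3 Mertk-/-V3 libraries lay below every other RPE library. Idi1 shares at least 97% of its sequence with a copy on each of chromosomes 2 and 5, neither in the stretch.

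Further along the same pathway, Mvd differed by 1.11 (adjusted p = 0.0951), Cyp51 by 1.06 (adjusted p = 0.0541), Fdps by 0.96 (adjusted p = 0.0617) and Msmo1 by 0.93 (adjusted p = 0.117). These 4 missed the threshold although their Mertk-/-V1 libraries did not overlap those of the other knockouts. Against B6 WT, Fdps was at 0.03 in Mertk-/-V1 and at -0.85 in Mertk-/-V3. The smallest differences were 0.03 for Ggps1, which branches off to protein prenylation, and 0.34 for both Ebp and Tm7sf2. In 8 of the 19 enzymes the Mertk-/-V1 libraries lay entirely above the others, against 0.34% of all genes tested.

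Of 5 genes of sterol sensing and uptake, listed in the same way, 2 were called higher, against 0.112% of all genes. Insig1 was at 10148, 7848, 8912, 5875, 5507 and 4985 in Mertk-/-V1, at 3058 to 4001 in Mertk-/-V2 and at 2749 to 3271 in Mertk-/-V3 (1.11 ± 0.17, adjusted p = 0.00734). Stard4, a sterol carrier, was at 1373 to 2081 against 720 to 1309 (0.87 ± 0.15, adjusted p = 0.0194). Neither overlapped between Mertk-/-V1 and the other knockouts. B6 WT, at 3743 to 6208 for Insig1 and 1045 to 1638 for Stard4, overlapped Mertk-/-V1 in both, and the differences of Mertk-/-V1 from it were 0.57 (adjusted p = 0.317) and 0.29 (adjusted p = 0.764). Srebf2, which encodes SREBP2, differed by 0.37 (adjusted p = 0.365), Insig2 by 0.08 (adjusted p = 0.905) and Scap by -0.17 (adjusted p = 0.665). None of 8 genes of fatty acid synthesis was called, and their median was 0.21.

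**Figure D3:**
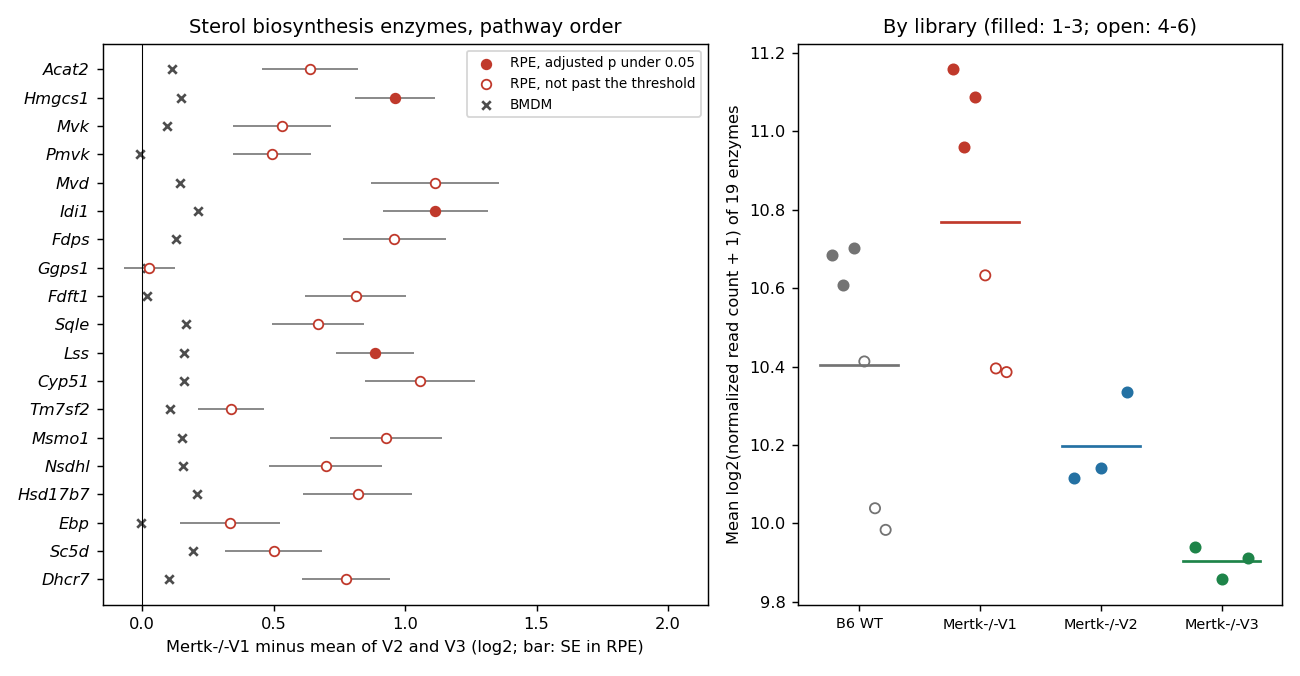
Left, log2 difference of Mertk-/-V1 from the average of the B6-derived lines Mertk-/-V2 and Mertk-/-V3 for 19 enzymes of sterol biosynthesis in pathway order, with the SE in RPE as bars and BMDM values as crosses; all 19 RPE values are above 0 and 3 filled ones were called. Right, the mean log2 level of the 19 enzymes in each RPE library, with group means as lines; Mertk-/-V1 replicates 1 to 3 (filled) lie above replicates 4 to 6 (open), and both lie above Mertk-/-V2 and Mertk-/-V3.

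The size of the sterol difference depended on which Mertk-/-V1 libraries were used. The mean log2 level of the 19 enzymes was 11.0 to 11.2 in Mertk-/-V1 replicates 1 to 3 and 10.4 to 10.6 in replicates 4 to 6. It was 10.1 to 10.3 in Mertk-/-V2 and 9.86 to 9.94 in Mertk-/-V3, below all 6 Mertk-/-V1 libraries. B6 WT showed the same split, at 10.6 to 10.7 in replicates 1 to 3 and 9.98 to 10.4 in replicates 4 to 6. With replicates 1 to 3 alone, 13 of the 19 enzymes were called higher, against 0.358% of all genes in that fit, and their median difference was 1.05. With replicates 4 to 6 alone, 0 were called by limma and the median was 0.45, with all 19 above 0. Within each set of replicates the median difference of Mertk-/-V1 from B6 WT was 0.42 and 0.34. When only the 12 knockout libraries were fitted, none of the 19 was called and the median stayed at 0.78. With rod photoreceptor markers as a covariate 15 were called higher, against 0.494% of all genes, and with DESeq2 12, against 0.499%. Hmgcs1 and Insig1 kept their calls in all 12 leave-one-out fits, while Lss lost its call in 3, Stard4 in 7 and Idi1 in 8. Against Mertk-/-V2 by itself none of these genes was called. Against Mertk-/-V3 by itself Hmgcs1, Idi1, Insig1 and Stard4 were called and Lss was not. The median of the 19 enzymes was 0.57 against Mertk-/-V2 and 0.90 against Mertk-/-V3. The sterol calls were thus not shown against each line. How much of the difference goes with the set of replicates and how much with the genotype cannot be told apart for Mertk-/-V2 and Mertk-/-V3.

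The promoters of the listed genes were also read for 2 sequence motifs. The shares below belong to the genes listed and would be the same whatever their levels in Mertk-/-V1, so they do not test the sterol difference. The 250 bases before the gene start, from RefSeq on GRCm38.p6, were available for 16 of the 19 enzymes and for 20 of all 24 sterol genes. CCAAT, the box bound by NF-Y, a usual partner of SREBP2, was present on either strand in 15 of the 16 promoters (93.8%), against 33.8% of 32851 promoters in the table. CACNCCAC, which covers the core of the sterol regulatory element, was in 2 of the 16 (12.5%), against 5.29% of all. Neither motif contains the other, and a match is a description of the sequence. Promoters of the 3 called enzymes and of Insig1 are printed 5′ to 3′ in the direction of the gene, with matches to either motif on either strand in capitals (ATTGG is CCAAT on the other strand).
Hmgcs1, chr13:119690101-119690350, plus strand: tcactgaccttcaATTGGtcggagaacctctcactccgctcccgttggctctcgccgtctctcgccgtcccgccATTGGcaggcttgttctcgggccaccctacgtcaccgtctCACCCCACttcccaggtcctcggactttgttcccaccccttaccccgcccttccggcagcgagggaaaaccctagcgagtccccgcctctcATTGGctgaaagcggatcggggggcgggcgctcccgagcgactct
Idi1, chr13:8885356-8885605, plus strand: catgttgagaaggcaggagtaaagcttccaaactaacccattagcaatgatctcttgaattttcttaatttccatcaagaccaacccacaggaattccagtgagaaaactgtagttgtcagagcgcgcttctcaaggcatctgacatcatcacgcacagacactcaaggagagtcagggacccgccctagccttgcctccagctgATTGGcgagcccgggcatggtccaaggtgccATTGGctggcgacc
Lss, chr10:76531355-76531604, plus strand: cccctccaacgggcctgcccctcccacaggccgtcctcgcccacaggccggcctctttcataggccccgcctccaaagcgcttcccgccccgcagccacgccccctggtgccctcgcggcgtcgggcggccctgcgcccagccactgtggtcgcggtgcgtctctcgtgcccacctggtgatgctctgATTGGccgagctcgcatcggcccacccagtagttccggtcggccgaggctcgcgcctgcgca
Insig1, chr5:28071162-28071411, plus strand: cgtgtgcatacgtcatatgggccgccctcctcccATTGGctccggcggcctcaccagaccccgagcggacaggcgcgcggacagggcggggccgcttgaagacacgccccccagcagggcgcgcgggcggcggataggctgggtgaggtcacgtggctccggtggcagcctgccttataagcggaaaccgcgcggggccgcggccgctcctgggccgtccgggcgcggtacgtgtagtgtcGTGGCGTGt
Hmgcs1 holds 3 CCAAT boxes and Idi1 holds 2, and Hmgcs1 and Insig1 also hold a CACNCCAC match. CCAAT boxes were present as well before genes that were not called, among them Mvk, Insig2 and Ggps1, the enzyme with the smallest difference (0.03). The box thus does not set the called genes apart from the others listed.

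Genes that answer to sterol load through LXR, the receptor for oxysterols, did not follow as a group. None of the 9 on the list was called, and 4 lay above 0 and 5 below, with a median of -0.01. Abca1, the pump that exports cholesterol, was at 1112 to 1831 in Mertk-/-V1 and at 1847 to 4097 in the other knockouts. Its groups did not overlap, and its difference of -0.84 ± 0.17 missed the threshold (adjusted p = 0.0617). All 6 Mertk-/-V1 libraries also lay below B6 WT, at 2629 to 3338. The Mertk-/-V1 difference of Abca1 from B6 WT was -1.04 and passed the threshold (limma, adjusted p = 0.00753). Abcg1 had the highest value of the list at 0.75 ± 0.25 (adjusted p = 0.397).

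In 3 further called genes the B6 WT mean lay nearer to the mean of Mertk-/-V1 than to those of the other knockouts. Cd59a (chr2:104095801-104115354, outside the stretch), which encodes a membrane inhibitor of complement lysis, was at 410 to 688 in Mertk-/-V1 and 624 to 845 in B6 WT, against 1130 to 1227 in Mertk-/-V2 and 1127 to 1367 in Mertk-/-V3. Its difference was -1.22 ± 0.13 (adjusted p = 0.000156), and from B6 WT it was -0.46 in Mertk-/-V1 (adjusted p = 0.267), 0.72 in Mertk-/-V2 (adjusted p = 0.263) and 0.80 in Mertk-/-V3 (adjusted p = 0.15). Within replicates 4 to 6 Mertk-/-V1 differed from B6 WT by -0.85, with all 3 libraries below every B6 WT library; of 18 complement genes tested it was the 1 call. Cyp26b1, which degrades retinoic acid, was at 929 to 2142 in Mertk-/-V1 and 632 to 1641 in B6 WT, but at 498 to 562 in Mertk-/-V2 and 197 to 424 in Mertk-/-V3 (1.78 ± 0.25, adjusted p = 0.00341). Dynlt1b, a dynein light chain with 4 near-identical copies, was at 80.9 to 130 in Mertk-/-V1 and 91.7 to 142 in B6 WT against 129 to 280 (-0.998 ± 0.19, adjusted p = 0.0366), and lost its call in 9 of the 12 leave-one-out fits.

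In others 1 line alone stood apart. Wdfy1 was at 1637 to 1880 in Mertk-/-V3 and at 295 to 584 in all other RPE libraries, and Banp, whose call was lost in 3 leave-one-out fits, at 630 to 665 in Mertk-/-V3 against 340 to 526. Gm15446 held 1.12 to 3.08 and 1010001B22Rik was at 0 in the 3 Mertk-/-V3 libraries, against 196 to 584 and 7.86 to 36.9 elsewhere. The last 2 genes lie within 250 kb of each other on chromosome 5. Gm15446 is 97.4% identical to Zfp932 over 1765 nt, so its level is uncertain. Zkscan3 was at 3137 to 3892 in Mertk-/-V2 against 1497 to 2669 elsewhere. In all, 3 called genes had Mertk-/-V2 apart from all other RPE libraries, 8 had Mertk-/-V3 apart and 13 had Mertk-/-V1 apart, against 0.961%, 0.791% and 0.122% of all genes tested. Of the 13, 8 lie in the stretch and the others are Eif3j2, Gm3650, Pcna-ps2, Rab37 and Ffar2.

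Another 4 called genes lie at the end of the X chromosome or on the Y chromosome, where X and Y hold near-identical sequence. Gm47283 was at 0 to 2.42 in Mertk-/-V2, 80.3 to 273 in Mertk-/-V3, 191 to 880 in Mertk-/-V1 and 268 to 579 in B6 WT. Gm15247 was at 14.6 to 39.8 in Mertk-/-V1 and 12.9 to 28.3 in B6 WT, against 0 to 0.86 in Mertk-/-V2 and 0 to 4.99 in Mertk-/-V3. G530011O06Rik was at 43.6 to 84.3 in Mertk-/-V1 and 7.25 to 30.8 in the other knockouts. Mid1-ps1 was at 2.84 to 24.3 in Mertk-/-V1 and 1.31 to 25.9 in B6 WT against 60.4 to 127, and its call was lost in 10 of the 12 leave-one-out fits. Gm15247 and G530011O06Rik overlap Mid1 on the opposite strand, and Mid1-ps1 is 99.6% identical to Mid1 over 1142 nt, so their levels are uncertain. Fitted folds of genes with libraries at or near 0, Tgm3 and the tissue difference of Mid1-ps1 included, depend on the pseudocount of 1 and are no bounds.

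Lists of RPE function held no called gene, but they do not include Tyro3 and Bloc1s6, which were called as described above. Of 26 genes for binding and engulfing outer segments, 14 lay above 0 and the median was 0.04, from Mreg at 0.81 ± 0.23 (adjusted p = 0.298) to Gulp1 at -0.43 ± 0.17 (adjusted p = 0.453). The 10 visual cycle genes all lay below 0, with a median of -0.52 and Rpe65, the retinoid isomerase, lowest at -0.94 ± 0.34 (adjusted p = 0.412). The 14 genes of melanin and melanosomes also all lay below 0, with a median of -0.29. The 10 RPE markers, which share genes with the visual cycle list, had a median of -0.43. These medians moved with the Mertk-/-V1 libraries used: that of the visual cycle was 0.01 with replicates 1 to 3 and -1.03 with replicates 4 to 6, and that of the RPE markers was -0.02 and -0.87. The part of RPE content in the values was not tested.

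The immediate early, stress, interferon, MHC, microglia and lysosome lists held no called gene either. The 13 immediate early genes tested all lay above 0 with a median of 0.89, led by Fosb, a subunit of the AP-1 transcription factor, at 1.51 ± 0.41 (adjusted p = 0.269). In BMDMs 7 of the 13 were called lower, against 0.328% of all genes, and the tissue difference of Fosb was 3.64 (adjusted p = 0.000717). Of 15 retinal stress and gliosis genes tested 12 lay above 0, with a median of 0.35, and Lif, a cytokine of stressed Muller glia, was highest at 1.03 ± 0.36 (adjusted p = 0.41). The 34 antiviral interferon effectors had a median of 0.23, the 13 MHC class I genes 0.18, the 7 MHC class II genes -0.13, the 17 disease-associated microglia genes 0.25 and the 22 lysosomal hydrolases -0.17. Of the markers of microglia and macrophages 17 of 18 lay above 0 with a median of 0.36, while their summed levels overlapped, at 9301 to 13610 in Mertk-/-V1, 11624 to 13438 in Mertk-/-V2 and 8933 to 14278 in Mertk-/-V3. Lens markers had a median of -0.64 and erythrocyte markers of 0.58, none called. Some of these medians changed sign with the line compared. Against Mertk-/-V2 and Mertk-/-V3 they were -1.50 and 0.21 for lens markers and -0.78 and 1.87 for erythrocyte markers. They were -0.01 and 0.68 for the antiviral effectors, 0.02 and -0.20 for MHC class II, and -0.25 and 0.02 for the lysosomal hydrolases. Such medians do not describe Mertk-/-V1 against both lines.

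Bone marrow-derived macrophages (BMDMs) of the same lines, 3 libraries each, gave the same contrast in another cell type. Of the 39 called genes 30 passed the filter in both tissues. Of these, 15 were called in BMDMs, each in the same direction as in RPE, against 0.967% of the 12513 genes tested in both. They included Ivd (-0.53), Eif3j1 (-0.72), AA467197, Gchfr (3.10), Exd1 (1.64) and Bloc1s6 (0.63) of the stretch, the copies Eif3j2, Gm3650 and Pcna-ps2, and Cd59a (-0.84). The rest were Dynlt1b, G530011O06Rik, Gm15247, Gm47283 and Wdfy1. For Wdfy1 it was again Mertk-/-V3 that stood apart, at 1146 to 1240 in BMDMs, against 244 to 270 in Mertk-/-V1, 200 to 263 in Mertk-/-V2 and 174 to 200 in B6 WT. In BMDMs AA467197 was at 2.35, 0 and 0 in Mertk-/-V1 and at 24 to 64.6 in the other knockouts. Tyro3, Tgm3 and Pla2g4b were below the filter in BMDMs and were not tested there. Low as it was, Tyro3 lay the other way from RPE, at 14.6 to 18 in Mertk-/-V1 BMDMs against 4.03 to 6.07 in Mertk-/-V2 and 7.46 to 9.83 in Mertk-/-V3.

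The difference between the tissues was tested in 1 model of all 30 libraries with a variance weight per tissue. It was called for 26 of 12513 genes (0.208%), 13 of them with the higher value in RPE, and for 4 of the 30. Rab37 differed by 0.49 ± 0.31 in BMDMs (adjusted p = 0.565), and its tissue difference was -2.87 (adjusted p = 3.76e-05). Mid1-ps1 had a tissue difference of -4.03 (adjusted p = 0.0152), Cd300lb of 1.05 (adjusted p = 0.017) and Zkscan3 of -0.66 (adjusted p = 0.00911). For the sterol enzymes the BMDM differences had a median of 0.15 and none was called. The tissue difference of Hmgcs1 was 0.81 (adjusted p = 0.171), that of Insig1 0.92 (adjusted p = 0.199) and that of Idi1 0.90 (adjusted p = 0.141), so none of these 3 was shown to differ between the tissues. Angptl4 had a tissue difference of -1.51 (adjusted p = 0.0629).

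**Figure D4:**
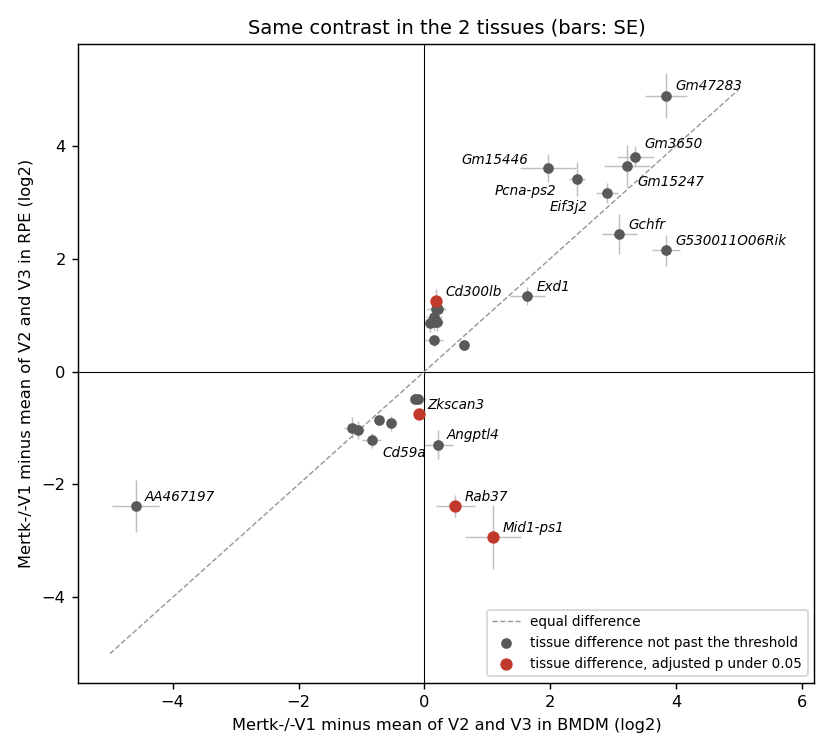
For the 30 called genes that were tested in both tissues, the log2 difference of Mertk-/-V1 from the average of the B6-derived lines Mertk-/-V2 and Mertk-/-V3 in BMDM on the x axis and in RPE on the y axis, with SE bars and a dashed line of equal difference. The 4 red genes passed the test of the tissue difference; Rab37 is at -2.39 in RPE and 0.49 in BMDM.

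Genes known to differ between C57BL/6J and C57BL/6N were looked at because the B6-derived lines hold both. Crb1 was at 925 to 6569 in Mertk-/-V1, 1655 to 2224 in Mertk-/-V2 and 372 to 1073 in Mertk-/-V3 (0.83 ± 0.52, adjusted p = 0.604). It was highest in Mertk-/-V1 replicates 5 and 6, at 6569 and 5197. Those libraries also had the highest rod marker sums, 1012290 and 619423. Nnt lay near the filter, at 7.29 to 14.2 in Mertk-/-V1 and 10.2 to 23.7 in the other knockouts. It differed by -0.49 ± 0.30 (adjusted p = 0.592). Neither was called. Pdp2, a phosphatase that activates pyruvate dehydrogenase, was at 541 to 796 in Mertk-/-V1 and 438 to 570 in the other knockouts (0.56 ± 0.10, adjusted p = 0.0208), and Zfp133-ps was at 93.5 to 149 against 142 to 261 (-0.82 ± 0.16, adjusted p = 0.0409). Both overlapped between groups and lost their calls in 8 and 9 of the 12 leave-one-out fits. Zfp133-ps also overlaps Dzank1 on the opposite strand, so its level is uncertain.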

How the data were processed

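Total RNA of posterior eyecup RPE was sequenced in paired-end reads of 150 bp, trimmed with btrim, mapped to GRCm38 with STAR and normalized with DESeq2. The counter, annotation release and strand setting are not given in the sources used here. The authors deposited, for each tissue, a table of gene signal in which counts are divided by 1 size factor per library. Division by the smallest step gave whole reads for 100% of values in each library (tolerance 0.01), and edgeR 4.0.16 and DESeq2 1.42.0 were run on these reads as alternatives. The main test was limma 3.58.1 in R 4.3.3 with pseudocount 1, a mean filter of 10, 4 group means and a trend. The tissue difference used 8 group means. GENCODE release 21 matched 55480 of 55573 identifiers. Near-identical copies were found with BLAST 2.17.0 (97% identity over 300 nt and 50% of a transcript). Figures were drawn in Python 3.11.15. The scripts were tested on simulated data.

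Members, tests, gene lists and the rule for named genes (each gene called, each TAM gene, and the members of each list with the highest and lowest difference) were chosen with earlier results of these data known. The 3 lipid lists (sterol synthesis, sterol sensing and uptake, fatty acid synthesis) and the fits without Mertk-/-V2 or Mertk-/-V3 were added after seeing the data. Some genes that these rules name are not reported here and were left out of the lists. The circadian clock, dual oxidase, guanylate-binding protein, chemokine, sex-linked and other marker lists (cone, Muller glia, inner retinal neuron, endothelium, fibroblast, T cell and neutrophil) held no call, with medians of 0.03, 0.95, 0.16, 0.34, 0.01, 0.27, -0.04, 0.18, 0.29, 0.13 and 0.86. The libraries were not treated as paired, since no label ties the numbers to a shared litter or batch and same-numbered knockout libraries did not all deviate together. Counting intervals are not printed, and depth limits low genes by counting error.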

Additional observations from a re-analysis of the deposited data

Results flagged for a closer look

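For 4 called genes the difference in RPE departed from that in BMDMs by a test of the difference itself (limma, log2 RPE minus BMDM): Cd300lb at 1.05, Mid1-ps1 at -4.03, Rab37 at -2.87 and Zkscan3 at -0.66. Among 86 groups of 6 libraries examined for the 39 called and 4 other TAM genes, 3 held a library far from the others by Dixon's criterion, and chance gives about 1 in 20 groups. Axl was at 1444 in Mertk-/-V1 replicate 3, against 1923 to 2191 in the other 5. Gm15247 was at 39.8 in Mertk-/-V1 replicate 4, against 14.6 to 21.9. Vipr2 was at 1183 in Mertk-/-V1 replicate 5, against 818 to 921.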

How the results depend on the processing

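Of 1053 pairs of a called gene and another setting, 776 kept direction and call, 275 kept the direction and lost the call, and 2 reversed. The count of DEGs, 18, became 39 without the fold threshold, 38 with DESeq2, 794 with array quality weights, 32 with the rod covariate, 558 with the replicate block and 40 with Mertk-/-V1 replicates 1 to 3 only. The 39 genes at adjusted p became 17 with the 12 knockouts only, 150 with DESeq2, 5444 with array weights, 170 with the rod covariate, 2329 with the replicate block, 93 with Mertk-/-V1 replicates 1 to 3, 23 without Mertk-/-V3 and 18 without Mertk-/-V2. The 10 in the stretch became 4, 21, 84, 25 and 53 with the first 5 of these settings, 6 with Y-linked genes as a covariate and 3 without Mertk-/-V2. The 26 tissue differences became 304 and 98 with Mertk-/-V1 RPE replicates 1 to 3 and 4 to 6, and 1530 with the replicate block. Leaving out 1 library at a time gave 13 to 36 DEGs (36 without Mertk-/-V3 replicate 1) and 23 to 186 genes at adjusted p (186 without Mertk-/-V3 replicate 1, 23 without Mertk-/-V2 replicate 1 or 2 or Mertk-/-V3 replicate 2 or 3). It gave 6 to 18 in the stretch (18 without Mertk-/-V3 replicate 1, 6 without Mertk-/-V1 replicate 3 or 4, any Mertk-/-V2 library or Mertk-/-V3 replicate 2). Tissue differences numbered 15 to 170 (170 without RPE Mertk-/-V3 replicate 1, 49 without BMDM Mertk-/-V2 replicate 3, 16 without RPE Mertk-/-V3 replicate 3, 15 without RPE Mertk-/-V2 replicate 2). The cause of these moves was not tested. Same-numbered libraries correlated at -0.46 to 0.59 in their deviations, so the block rests on shared numbers only.

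Values that reversed were 1010001B22Rik at -0.43 and Wdfy1 at 0.047 without Mertk-/-V3, Mertk at 0.54 without Mertk-/-V2, and Pros1 at -0.059 with array weights, -0.11 with the replicate block and -0.12 with Mertk-/-V1 replicates 1 to 3. The tissue difference of Cd300lb was lost without the variance weight per tissue (adjusted p = 0.155), without a filter (0.0542) and without RPE Mertk-/-V2 replicate 2 (0.0622), and that of Mid1-ps1 with replicates 4 to 6 (0.0622) and without RPE Mertk-/-V2 replicate 2 (0.0503). Depth limits genes near the filter of 10.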
